A study of Chlorocebus sabaeus with 45 samples.

Results

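The complement genes described here are 10 receptors, regulators and components measured in whole-blood RNA of vervet monkeys: C1QA and C1QB, CFP and CFD, C5AR1, C3AR1 and CR1, and CD46, CD55 and CD59. They were taken by gene symbol, and all 10 had a row among the 33994 rows of the expression tables. The animals were 15 wild-born juvenile males of Chlorocebus sabaeus from St. Kitts, 1 from each of 15 troops, and each gave blood on day 0 (Tp1), day 3 (Tp2) and day 14 (Tp4), which made 45 libraries. On day 0 the animals were in the field, just trapped and sedated with ketamine and xylazine. On days 3 and 14 they were housed singly in a quarantine facility and sedated with dexmedetomidine and midazolam. The study treated capture, relocation and isolation as a natural psychosocial stressor. Place and sedative changed together with the day, so they cannot be told apart from any difference between day 0 and the later days. No animal stayed in the wild as a control over the same period. The sample labels give day 14 for the last time point where the design text gives day 15.

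Complement is a cascade of plasma proteins that marks microbes and damaged cells for uptake and can puncture their membranes. It is started by C1q bound to antibody, by lectins bound to sugars, or by the alternative pathway, in which properdin steadies the convertase that factor D helps to make. Cleavage of C3 and C5 releases the small peptides C3a and C5a, which call and activate leukocytes through their own receptors. Host cells are shielded by membrane proteins that break up convertases or stop the final pore, and red cells of primates carry complement-coated immune complexes on complement receptors. Most plasma complement proteins come from the liver, whereas blood cells carry the receptors and membrane regulators. Neutrophils and monocytes also make properdin, and macrophages make C1q.

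Between 13216275 and 31469332 fragments per library fell on genes. Levels are given as scaled FPKM, that is fragments per kilobase of gene and per fixed number of fragments in the library, divided by a scaling factor for each library (TMM), a unit that allows levels of different genes to be compared per length. Changes are log2 fold changes of the scaled FPKM after 0.1 was added, with standard errors and adjusted p-values from limma over 18753 tested genes. Without TMM the median change of all tested genes was −0.36 from day 0 to day 14 and −0.35 from day 3 to day 14, against −0.02 and −0.02 with it. Changes on day 14 are therefore given relative to the typical gene. In whole blood, fewer cells of a type and less RNA per cell cannot be told apart. The day 0 libraries of animals 7, 11 and 15 stood apart: the summed level of 12 neutrophil markers was 29423, 38774 and 42155 scaled FPKM in them, against 1278 to 10599 in the other 12 day 0 libraries. The sums of neutrophil, monocyte, erythroid and platelet markers given here each rest mostly on 1 gene. These are S100A9 (day 0 mean of 8206 scaled FPKM), LYZ (1491), ALAS2 (6281) and PPBP (759). Each tested change of a named gene is given for all 15 animals, and without those 3 animals where that changes its call. The correlations were computed over all 45 libraries alone, with those of the 3 animals included. All 12 neutrophil markers were present on day 0, though S100A12 was at 0 in at least 1 library of every day and CMTM2 in at least 1 library of day 14.

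The 10 genes spanned more than 3 orders of magnitude in level. By the median on day 0 the order was CFD (493 scaled FPKM), CD55 (391), CFP (274), CD59 (82.8), CD46 (71.1), CR1 (14.0), C5AR1 (4.93), C3AR1 (3.23), C1QB (1.54) and C1QA (0.321). Neighbours in that order had overlapping ranges over the 15 animals, except CFP and CD59, and CD46 and CR1. On day 14 the order was CD55 (657), CFD (380), CFP (254), CD59 (115), CD46 (74.4), CR1 (10.7), C1QB (4.55), C3AR1 (3.91), C5AR1 (1.89) and C1QA (0.686). CD55 had thus taken the first place from CFD, and C5AR1 had moved below both C3AR1 and C1QB. The C1q genes rested on few fragments, with 0 to 128 per library for C1QA and 8 to 597 for C1QB, so their values carried a large counting error. CD55 rested on 10075 to 137604 fragments.

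**Figure D1:**
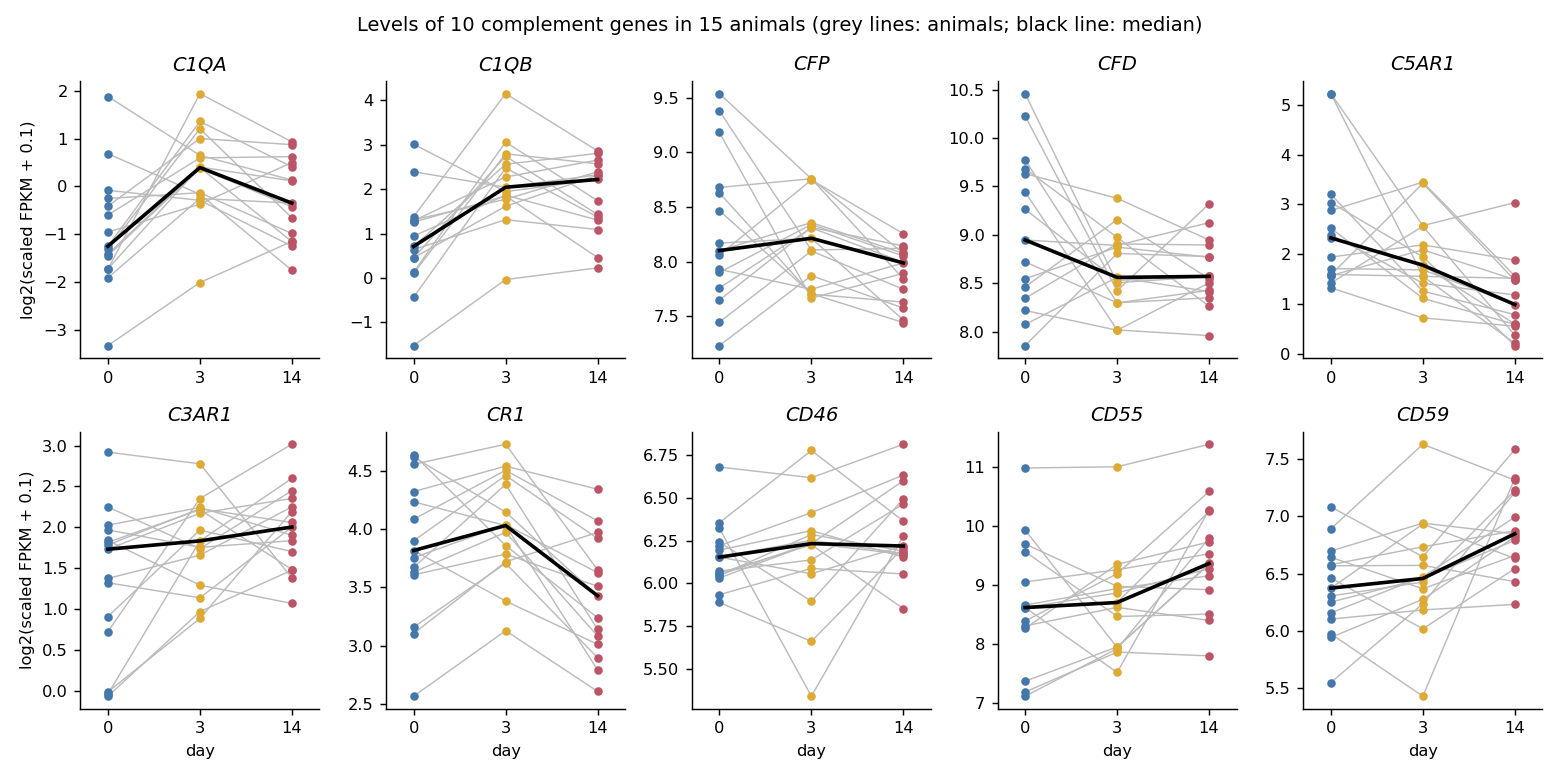
Level of each of the 10 complement genes on days 0, 3 and 14, as log2(scaled FPKM + 0.1), with 1 point per library, grey lines joining the samples of an animal and a black line through the median of 15 animals. C5AR1 falls in every animal from day 0 to day 14, C1QA and C1QB rise in most animals to day 3, and the 2 day 0 points far above the others for C5AR1 are animals 7 and 15.

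Between days 0 and 3, limma called 2 of the 10 genes at an adjusted p under 0.05, against 12.2% of all tested genes, and both rose, as did 6.04% of all. Between days 0 and 14 it called 4 of the 10, of which 3 rose and 1 fell, against 36.0% of all tested genes (18.8% rose and 17.3% fell). Between days 3 and 14 it called 1 of the 10, which fell, against 13.3% of all tested genes. The share of members called on day 14 was thus near the share of all genes. The median log2 fold change of the 10 genes was 0.06 from day 0 to day 3, 0.34 from day 0 to day 14 and −0.15 from day 3 to day 14, and the medians of all tested genes were 0.01, −0.02 and −0.02. With the animal as a block, which compares each animal with itself, the counts were 2, 7 and 4 of 10, against 19.2%, 44.0% and 23.8% of all tested genes.

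**Figure D2:**
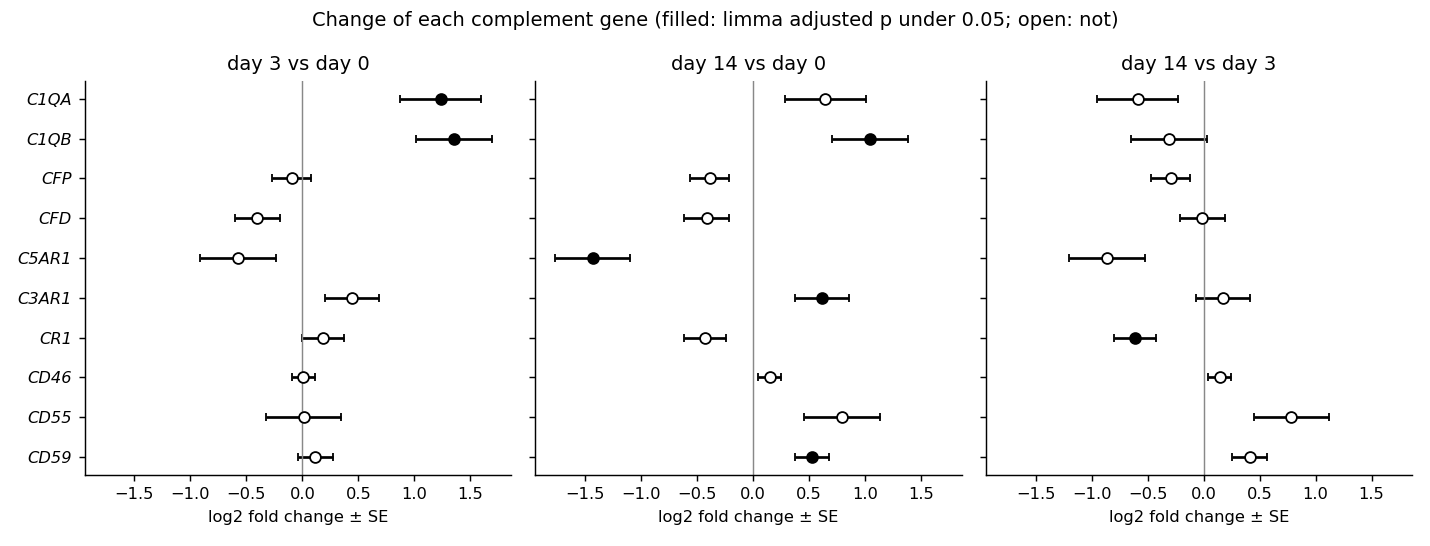
Log2 fold change with its standard error for each of the 10 complement genes in the 3 comparisons, from limma over 15 animals per day without the animal as a block. Filled points passed an adjusted p of 0.05: C1QA and C1QB from day 0 to day 3, C1QB, C5AR1, C3AR1 and CD59 from day 0 to day 14, and CR1 from day 3 to day 14. With the animal as a block CR1, CD55 and CFP also passed from day 0 to day 14, and C5AR1, CD55 and CD59 from day 3 to day 14.

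C1QA and C1QB encode chains of C1q, the recognition molecule of the classical pathway, and were the genes of the set that rose on day 3. C1QB was at 0.249, 1.54 and 7.97 scaled FPKM (lowest, median and highest) on day 0, at 0.877, 4.02 and 17.7 on day 3 and at 1.07, 4.55 and 7.16 on day 14. The ranges overlapped, and 2 day 3 libraries lay above all day 0 libraries. C1QB rose from day 0 to day 3 by 1.35 (SE 0.34, adjusted p = 0.00769 from limma), and 13 of 15 animals went up. It was still above day 0 on day 14, by 1.04 (SE 0.34, adjusted p = 0.0138), in 12 of 15 animals. This second call was lost without TMM (0.64, adjusted p = 0.108) and with the RNA integrity number (RIN) as a covariate (0.50, adjusted p = 0.380). RIN, as the study lists it, was on average lowest on day 0 and highest on day 14, with overlap between the days, so a fit with RIN as a covariate can take up part of the difference between days.

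C1QA was at 0, 0.321 and 3.57 scaled FPKM on day 0, at 0.149, 1.21 and 3.73 on day 3 and at 0.197, 0.686 and 1.81 on day 14. The ranges overlapped, and animal 4 was lowest on days 0 and 3. Its day 0 library held 0 C1QA fragments, which allows up to 0.117 CPM, the level of 3 fragments there. C1QA rose from day 0 to day 3 by 1.23 (SE 0.36, adjusted p = 0.0194) and was higher in 12 of 15 animals. With RIN as a covariate the change was 1.06 (adjusted p = 0.0653), and with RIN and the animal as a block it was 1.11 (adjusted p = 0.0240). Its change from day 0 to day 14 was 0.65 (SE 0.36, adjusted p = 0.158).

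C1QC, which encodes the remaining chain of C1q, went the same way on day 3, by 1.32 (SE 0.27, adjusted p = 0.00151), and was higher in 13 of 15 animals. It fell again from day 3 to day 14 by 0.82 (SE 0.27, adjusted p = 0.0383), in 14 of 15 animals, whereas C1QA (−0.59, SE 0.36, adjusted p = 0.265) and C1QB (−0.31, SE 0.34, adjusted p = 0.568) did not pass the test there. The call of C1QC held in 7 of the 15 fits that left out 1 animal, with adjusted p up to 0.0994, and was lost with limma voom (−1.07, adjusted p = 0.0536). Whether the 3 genes differed in this step was not tested, and C1QC held only 0 to 55 fragments per library. In every library the level of C1QB was above that of C1QA, with a median ratio of 3.51 on day 0 (14 libraries with C1QA above 0), 4.4 on day 3 and 4.57 on day 14. Of 9 monocyte markers, 2 rose from day 0 to day 3, and the summed level of the 9 was 707 to 7314 scaled FPKM on day 0 and 705 to 2380 on day 3. Their part in the rise of the C1q genes was not tested. Without animals 7, 11 and 15 the rises on day 3 were 1.48 for C1QB (adjusted p = 0.0214) and 1.42 for C1QA (adjusted p = 0.0255).

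CFP encodes properdin, the protein that stabilises the alternative pathway convertase, and CFD encodes factor D, the protease that cleaves factor B. Neither passed the test in any of the 3 comparisons. CFP was at 150.3, 274 and 742 scaled FPKM on day 0, at 203, 297 and 433 on day 3 and at 174, 254 and 306 on day 14. CFD was at 232, 493 and 1406 on day 0, at 258, 377 and 665 on day 3 and at 249, 380.1 and 639 on day 14. In both genes the spread between animals was widest on day 0: the standard deviation of the log2 values was 0.69, 0.39 and 0.26 for CFP on days 0, 3 and 14, and 0.81, 0.40 and 0.35 for CFD. The highest 3 day 0 values of CFP were those of animals 15, 11 and 7, and the highest 2 of CFD were those of animals 11 and 7.

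The change from day 0 to day 14 was −0.39 for CFP (SE 0.17, adjusted p = 0.0757), which was lower in 8 of 15 animals, and −0.41 for CFD (SE 0.20, adjusted p = 0.101), also lower in 8. With the animal as a block the fall of CFP passed (adjusted p = 0.0462) and that of CFD did not (0.0799), and with RIN as a covariate neither did (−0.44, adjusted p = 0.132, and −0.50, adjusted p = 0.135). CFP also passed without animal 9 (−0.44, adjusted p = 0.0462) and CFD without animal 5 (−0.51, adjusted p = 0.0435). Without TMM both passed, at −0.81 and −0.84. Without animals 7, 11 and 15 the changes were −0.15 (adjusted p = 0.482) and −0.17 (adjusted p = 0.553). These animals were set apart by high day 0 neutrophil markers, with which CFP and CFD had r of 0.73 and 0.74. Leaving them out therefore favours a smaller fall from day 0 in both genes. Within libraries CFD was above CFP in 14, 15 and 15 of 15 on days 0, 3 and 14, with median ratios of 1.76, 1.46 and 1.68.

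C5AR1 encodes the main receptor for C5a, through which the peptide draws neutrophils and monocytes to sites of complement activation. Over all 15 animals its change from day 0 to day 14 was the largest of the 10 genes in size, whereas without animals 7, 11 and 15 that of C1QB was larger (1.13). Its level was 2.42, 4.93 and 37.2 scaled FPKM on day 0, 1.56, 3.34 and 10.8 on day 3 and 1.03, 1.89 and 8.1 on day 14. The ranges overlapped, but 9 of 15 day 14 libraries lay below every day 0 library, and animals 15 and 7, at 37.2 and 37.1, lay far above the next day 0 library at 9.1. C5AR1 fell from day 0 to day 14 by 1.43 (SE 0.34, adjusted p = 0.000924), which is 2.70-fold on this scale, and it was lower in 15 of 15 animals.

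The fall of C5AR1 was called whichever animal was left out, with values from −1.53 to −1.27, and without animals 7, 11 and 15 together it was −1.1 (adjusted p = 0.00200). With RIN as a covariate it was −1.05 (adjusted p = 0.0503). The change from day 0 to day 3 was −0.57 (SE 0.34, adjusted p = 0.289), and −0.03 without animals 7, 11 and 15. Within the same housing and sedation, from day 3 to day 14, it was −0.86 (SE 0.34, adjusted p = 0.0790) and lower in 14 of 15 animals. That later change passed with the animal as a block (adjusted p = 0.0259), without animal 7 (−0.92, adjusted p = 0.0448), without animal 15 (−0.95, adjusted p = 0.0353) and without animals 7, 11 and 15 (−1.07, adjusted p = 0.00791), and with RIN it was −0.66 (adjusted p = 0.227). Of 12 neutrophil markers, 11 fell from day 0 to day 14, with a median change of −1.24, and 7 fell without animals 7, 11 and 15, with a median of −0.83. Their summed level was 1278 to 42155 scaled FPKM on day 0, 527 to 6770 on day 3 and 517 to 4258 on day 14. The part of these markers in the fall of C5AR1 from day 0 to day 14 was not tested. For day 3 to day 14 limma called 0 of the 12, with 0 at an unadjusted p under 0.05, as did limma voom on the recovered fragments, and their median change was −0.27. Without TMM 5 of the 12 fell in that step, with a median of −0.65. The part of the markers in this later change of C5AR1 was not tested either.

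C3AR1 encodes the receptor for C3a, and its change had the opposite sign. It was at 0.859, 3.23 and 7.47 scaled FPKM on day 0, at 1.75, 3.47 and 6.75 on day 3 and at 2.0, 3.91 and 7.99 on day 14. The ranges overlapped almost wholly. C3AR1 rose from day 0 to day 14 by 0.61 (SE 0.24, adjusted p = 0.0415) and was higher in 10 of 15 animals. This call was weak: it was lost when animal 3, 4, 7, 9, 10, 11, 12, 13 or 14 was left out (adjusted p of 0.0509 to 0.130), and the change was 0.56 (adjusted p = 0.112) without animals 7, 11 and 15, 0.20 (adjusted p = 0.533) without TMM and 0.47 (adjusted p = 0.257) with RIN. It also missed the threshold with a pseudocount of 1 (adjusted p = 0.0527), with no filter on low values (0.0715) and with TMM factors taken from all genes (0.0559).

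Within each library the level of C5AR1 relative to C3AR1 needs no scaling between libraries. The median ratio of C5AR1 to C3AR1 was 1.90 on day 0, 1.09 on day 3 and 0.465 on day 14. C5AR1 was the higher of the pair in 10 of 15 animals on day 0, but in 8 animals on day 3 and in only 3 animals on day 14. The ratio went down from day 0 to day 14 in 13 of 15 animals, and from day 3 to day 14 in 12. C5AR2, which encodes a further C5a receptor that does not couple to G proteins and lies next to C5AR1, had a median of 17.2 scaled FPKM on day 0, 16.6 on day 3 and 11.1 on day 14. C5AR2 fell from day 0 to day 14 by 0.90 (SE 0.28, adjusted p = 0.0105) and was lower in 11 of 15 animals. With RIN the change of C5AR2 was −0.83 (adjusted p = 0.0734), and without animals 7, 11 and 15, its highest 3 on day 0, the change was −0.53 (adjusted p = 0.113).

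**Figure D3:**
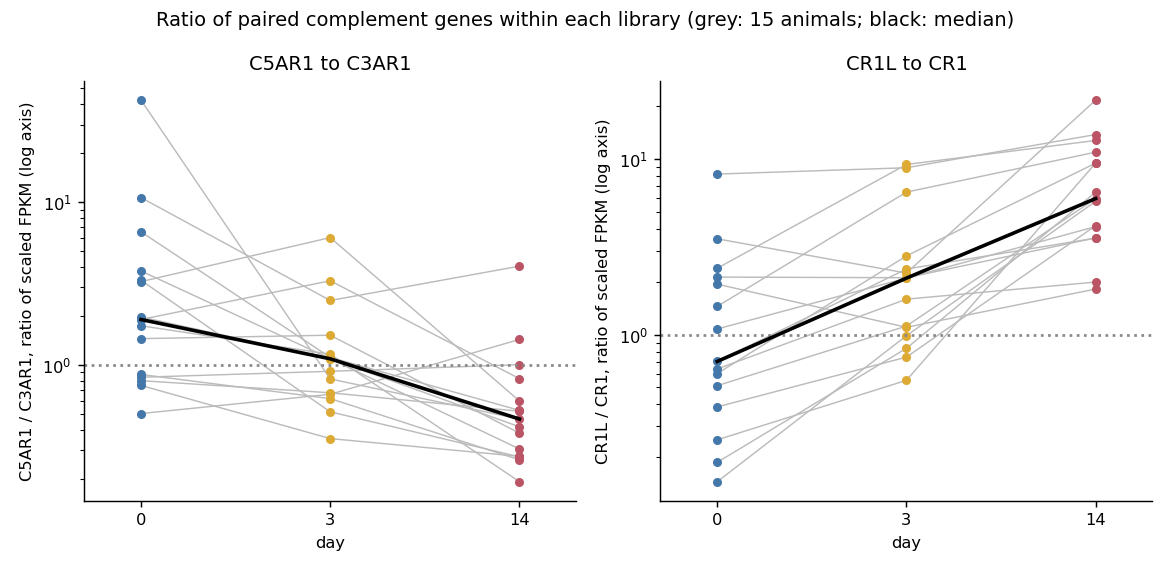
Ratio of C5AR1 to C3AR1 and of CR1L to CR1 within each library on days 0, 3 and 14, on log axes, with grey lines for the 15 animals, a black line for the median and a dotted line where both genes are level. The median of the first ratio goes from 1.90 to 0.465, and on day 14 all 15 animals lie above 1 for the second.

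CR1 encodes complement receptor 1, which binds C3b and C4b and speeds the decay of convertases. Its level was 5.82, 14.0 and 24.9 scaled FPKM on day 0, 8.64, 16.3 and 26.4 on day 3 and 5.99, 10.7 and 20.2 on day 14. The ranges overlapped, 5 of 15 day 14 libraries lay below every day 3 library, and animal 11 was lowest on all 3 days. CR1 fell from day 3 to day 14 by 0.61 (SE 0.19, adjusted p = 0.0285) and was lower in 14 of 15 animals. The call was lost when animal 1, 8, 9 or 12 was left out (adjusted p of 0.0532 to 0.0586) and with RIN (−0.56, adjusted p = 0.0728), whereas it was made with the animal as a block (adjusted p = 0.00178) and with RIN and the block (−0.51, adjusted p = 0.0182). Its change from day 0 to day 14 was −0.43 (SE 0.19, adjusted p = 0.0708), lower in 11 of 15 animals. It passed with the animal as a block (adjusted p = 0.00853), without animal 10 (−0.52, adjusted p = 0.0315), without animal 11 (−0.46, adjusted p = 0.0340), without animals 7, 11 and 15 (−0.51, adjusted p = 0.0325) and without TMM (−0.85, adjusted p = 0.00455). With RIN it was −0.34 (adjusted p = 0.306), and with RIN and the block −0.23 (adjusted p = 0.335).

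CR1L, a paralog with a shorter transcript in these files (1648 bases against 6569 for CR1), rose on both later days. CR1L was at 3.41, 10.2 and 98.9 scaled FPKM on day 0, at 12, 27.5 and 122 on day 3 and at 15.2, 65.2 and 158 on day 14. CR1L rose from day 0 to day 3 by 1.31 (SE 0.40, adjusted p = 0.0234, called in 12 of the 15 fits that left out 1 animal) in 13 of 15 animals and from day 0 to day 14 by 2.35 (SE 0.40, adjusted p = 1.53e-05) in 14 of 15. Its change from day 3 to day 14 was 1.03 (SE 0.40, adjusted p = 0.0699), higher in 12 of 15 animals, which passed with the block (adjusted p = 0.0196). From day 0 to day 3 the change of CR1 had the same sign (0.18, SE 0.19, adjusted p = 0.594). The median ratio of CR1L to CR1 within a library was 0.703, 2.09 and 5.94 on days 0, 3 and 14, and after day 3 it went up in 15 of 15 animals. The 2 genes are alike in sequence, and how the counting shared fragments between them is not given in the sources used here, so both levels are uncertain.

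CR2, the receptor for C3d on B cells, had medians of 5.96, 4.78 and 3.69 scaled FPKM on days 0, 3 and 14. Its change was −0.61 from day 3 to day 14 (SE 0.23, adjusted p = 0.0653), lower in 14 of 15 animals, and with the animal as a block this passed (adjusted p = 0.0140). ITGAM, the alpha chain of complement receptor 3 on phagocytes, had medians of 32.8, 33.4 and 25.2 scaled FPKM. It fell from day 0 to day 14 by 0.74 (SE 0.26, adjusted p = 0.0242), in 12 of 15 animals, and the call was lost with RIN (−0.46, adjusted p = 0.306), without animals 7, 11 and 15 (−0.39, adjusted p = 0.198) and in 2 of the 15 fits that left out 1 animal.

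The 3 membrane regulators of the set act at different steps. CD46 is a cofactor for the cleavage of C3b and C4b, CD55 (decay-accelerating factor) takes convertases apart, and CD59 blocks the membrane attack complex. CD59 was at 46.7, 82.8 and 135 scaled FPKM on day 0, at 43.0, 87.8 and 198 on day 3 and at 75.1, 115 and 192 on day 14. The ranges overlapped, and 5 of 15 day 14 libraries lay above every day 0 library. CD59 rose from day 0 to day 14 by 0.53 (SE 0.15, adjusted p = 0.00616), 1.44-fold, and was higher in 14 of 15 animals.

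The rise of CD59 was called whichever animal was left out, and without animals 7, 11 and 15 together it was 0.56 (adjusted p = 0.00380). Without TMM it was 0.10 (adjusted p = 0.389), so it was a rise relative to the typical gene, and with RIN it was 0.47 (adjusted p = 0.0619). Its change from day 3 to day 14 was 0.41 (SE 0.15, adjusted p = 0.0636), which passed with the animal as a block (adjusted p = 0.0220), without animal 6 (0.46, adjusted p = 0.0446), without animal 7 (0.46, adjusted p = 0.0247) and without animals 7, 11 and 15 (0.45, adjusted p = 0.0286). It was 0.029 without TMM (adjusted p = 0.832) and 0.38 with RIN (adjusted p = 0.133). That from day 0 to day 3 was 0.12 (SE 0.15, adjusted p = 0.693).

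CD55 was at 138, 391 and 2016 scaled FPKM on day 0, at 182, 415 and 2045 on day 3 and at 222, 657 and 2664 on day 14. Animal 7 was highest on all 3 days, above the next library at 973, 650.0 and 1530 in turn. The change of CD55 from day 0 to day 14 was 0.80 (SE 0.34, adjusted p = 0.0589), higher in 12 of 15 animals. It passed with the animal as a block (adjusted p = 0.00729), when animal 7, 11, 13 or 15 was left out (adjusted p of 0.0202 to 0.0433), and without animals 7, 11 and 15 together (1.1, adjusted p = 0.00424). It was 0.37 without TMM (adjusted p = 0.226), 0.81 with RIN (adjusted p = 0.154) and 0.70 with RIN and the block (adjusted p = 0.108). Its change from day 3 to day 14 was 0.78 (SE 0.34, adjusted p = 0.104), which passed with the block (adjusted p = 0.0179), without animal 7 (0.81, adjusted p = 0.0400) and without animals 7, 11 and 15 (0.83, adjusted p = 0.0415), and it was 0.40 without TMM (adjusted p = 0.205) and 0.79 with RIN (adjusted p = 0.156).

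CD46 varied least of the 10 genes between animals on day 0, with a standard deviation of 0.19 in log2. It was at 59.2, 71.1 and 102 scaled FPKM on day 0, at 40.5, 75.1 and 110 on day 3 and at 57.7, 74.4 and 112 on day 14. The ranges overlapped on all 3 days, and animal 8 was lowest on day 3. The change was 0.01 from day 0 to day 3 (SE 0.10, adjusted p = 0.977) and 0.15 from day 0 to day 14 (SE 0.10, adjusted p = 0.259), and the sign of both turned without TMM (−0.035 and −0.27). CD55 was above CD46 and above CD59 in all 45 libraries.

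Besides the 10, another 43 complement genes had a row, and 27 of them were tested. Of the 27, 5 passed from day 0 to day 3 (4 up and 1 down), 8 from day 0 to day 14 (4 up and 4 down) and 3 from day 3 to day 14 (2 up and 1 down), against 12.2%, 36.0% and 13.3% of all tested genes. With the animal as a block 7, 14 and 9 of the 27 passed, against 19.2%, 44.0% and 23.8% of all. The median log2 fold change of the 27 was 0.18, −0.11 and −0.25 in the 3 comparisons. Without animals 7, 11 and 15 the 27 genes gave 4, 4 and 4 calls, against 5.87%, 29.1% and 20.0% of all tested genes in that fit. By function and with the members included, the calls from day 0 to day 3 were 4 of 8 recognition genes (the 3 C1q genes up and C1RL down), 1 of 5 plasma regulators, 1 of 7 membrane regulators, 1 of 12 receptors and 0 of 3 each among alternative pathway genes and terminal components. From day 0 to day 14 the counts were 3 of 8 recognition genes, 0 of 3 alternative pathway genes, 1 of 3 terminal components, 2 of 5 plasma regulators, 2 of 7 membrane regulators and 4 of 12 receptors (1 up and 3 down). From day 3 to day 14 they were 2, 0, 1, 0, 1 and 1 in the same order, with CR1 counted both as a regulator and as a receptor. Without animals 7, 11 and 15 the day 0 to day 14 counts of the plasma regulators, membrane regulators and receptors were 0, 4 and 2, and the day 3 to day 14 counts of membrane regulators and receptors were 3 and 3.

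C5, the source of C5a and the start of the pore, was the most abundant gene among the other complement genes named here. C5 was at 11.6, 177 and 523 scaled FPKM on day 0, at 51.0, 274 and 999.9 on day 3 and at 265, 728 and 1561 on day 14. Of the 15 day 14 libraries, 11 lay above every day 0 library. C5 rose from day 0 to day 14 by 2.28 (SE 0.47, adjusted p = 0.000211) in 14 of 15 animals, and it also rose from day 3 to day 14, by 1.44 (SE 0.47, adjusted p = 0.0380 from limma), in 15 of 15. The later call was made in 8 of the 15 fits that left out 1 animal, with adjusted p up to 0.114, and was lost with RIN (1.33, adjusted p = 0.0915) and with limma voom (1.41, adjusted p = 0.0518).

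CLU encodes clusterin, a fluid-phase inhibitor of the membrane attack complex that platelets store. CLU had medians of 7.44, 28.9 and 15.9 scaled FPKM on days 0, 3 and 14 and rose from day 0 to day 3 by 1.61 (SE 0.31, adjusted p = 0.00102), in 13 of 15 animals. On day 14 it was above day 0 by 0.85 (SE 0.31, adjusted p = 0.0262), a call lost without TMM (0.43, adjusted p = 0.206), with RIN (0.86, adjusted p = 0.0903), without animals 7, 11 and 15 (0.76, adjusted p = 0.0860) and in 3 of the 15 fits that left out 1 animal. All 7 platelet markers rose from day 0 to day 3, of which 6 did so without animals 7, 11 and 15, and their summed level was 233 to 4255 scaled FPKM on day 0, 598 to 4816 on day 3 and 409 to 3452 on day 14. Their part in the rise of CLU was not tested.

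FCN3, a ficolin that starts the lectin pathway, was up from day 0 to day 14 by 1.66 (SE 0.29, adjusted p = 2.38e-05) on 0 to 21 fragments per library. At 1050 bases, its highest deposited FPKM on day 0 (0.289) and day 3 (0.473) were under 0.5 CPM. FCN3 thus passed the filter only through day 14, so its call, counted above, is no support for a rise. C1RL, a protease related to C1r, fell from day 0 to day 14 by 1.08 (SE 0.23, adjusted p = 0.000352) in 13 of 15 animals, and from day 0 to day 3 by 0.69 (SE 0.23, adjusted p = 0.0452). Without animals 7, 11 and 15 those falls of C1RL were −0.81 (adjusted p = 0.0106) and −0.35 (adjusted p = 0.429). The day 3 call of C1RL was also lost with RIN (−0.61, adjusted p = 0.111), with limma voom (−0.67, adjusted p = 0.0516) and in 8 of the 15 fits that left out 1 animal. C4BPB, a chain of the C4b-binding protein, fell by 0.92 (SE 0.35, adjusted p = 0.0351), with 2, 3 and 4 libraries at 0 on days 0, 3 and 14 and a day 0 maximum of 3.85 scaled FPKM in animal 15, and without animals 7, 11 and 15 its change was −0.26 (adjusted p = 0.462). That call was also lost with RIN (−0.77, adjusted p = 0.194), with limma voom (−1.44, adjusted p = 0.141) and in 5 of the 15 fits that left out 1 animal. The remaining gene called from day 0 to day 3 was VSIG4, a macrophage receptor for C3b, which was up by 0.84 (adjusted p = 0.0278) in 13 of 15 animals and is named after its value was seen. The call of VSIG4 was lost without animals 7, 11 and 15 (0.69, adjusted p = 0.126), without TMM (0.81, adjusted p = 0.0583), with RIN (0.68, adjusted p = 0.0981) and in 4 of the 15 fits that left out 1 animal.

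The 10 genes did not move as one group between libraries. After removal of the time point means, the closest pairs over the 45 libraries from 15 animals were C1QA and C1QB (r = 0.84), CFP and CFD (0.80), C5AR1 and CFP (0.68) and CD55 and CD59 (0.65). C5AR1 and C3AR1 had r = −0.23, and CR1 had r between −0.42 and 0.02 with each of the other members. These correlations come from the same libraries, so depth and scaling are shared between the genes of a pair. They are descriptions without a test.

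Against the mean log2 level of each marker list, C5AR1 and CFD were most like the neutrophil markers (r = 0.82 and 0.74). CFP was most like the 9 monocyte markers (0.77), with r = 0.73 for the neutrophil markers. CD59 and CD55 were most like the 9 erythroid markers (0.86 and 0.63), as were CR1L (0.91) and C5 (0.72). CR1 was most like the 5 B cell markers (0.65), with r = −0.31 for the erythroid markers. The largest r of C3AR1 in size was −0.28, with the platelet markers. All 9 erythroid markers rose from day 0 to day 14, with a median change of 2.82, and their summed level was 492 to 22891 scaled FPKM on day 0, 3904 to 41660 on day 3 and 7675 to 70059 on day 14, with none at 0. Of the monocyte markers 2 of 9 fell from day 0 to day 14, and 1 without animals 7, 11 and 15. Of the B cell markers 1 of 5 fell, with a median change of −0.33, and 4 of 5 without those animals, with a median of −0.50. From day 3 to day 14, where CR1 fell, 1 of the 5 B cell markers fell (2 with the animal as a block and 2 without animals 7, 11 and 15), with a median change of −0.39. The summed level of the B cell markers was 74.2 to 498 scaled FPKM on day 0, 175 to 475 on day 3 and 138 to 335 on day 14, with none at 0. The part of the B cell markers in the changes of CR1 was not tested. The part of the erythroid markers in the rise of CD59, CR1L and C5 was not tested.

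**Figure D4:**
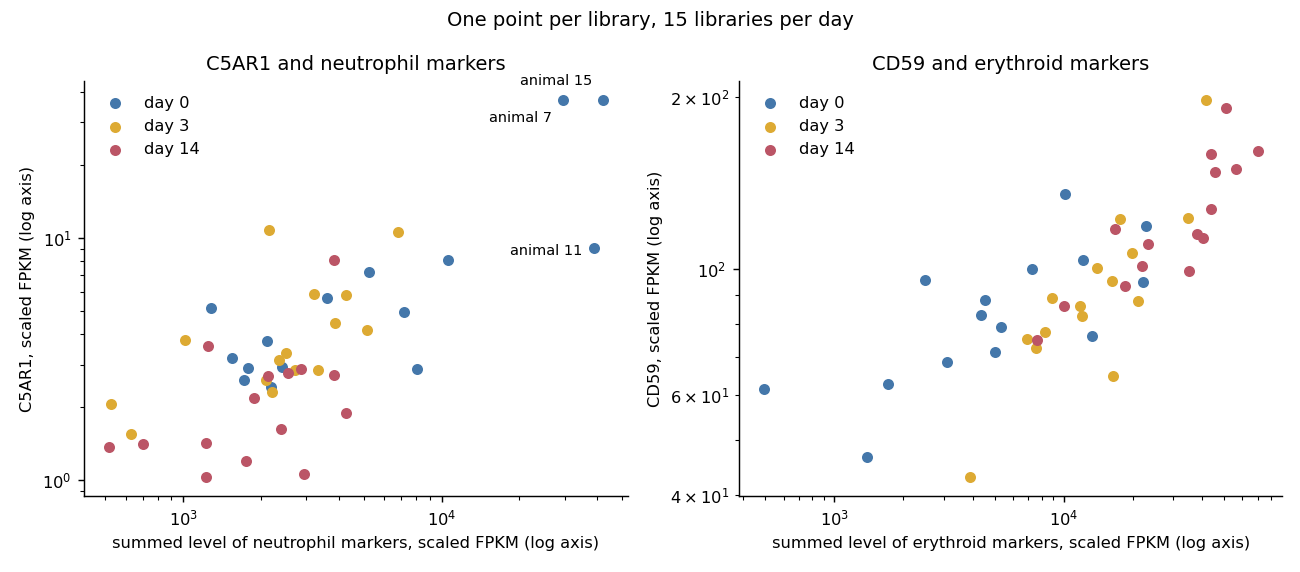
C5AR1 against the summed level of 12 neutrophil markers and CD59 against the summed level of 9 erythroid markers, in scaled FPKM on log axes, with 1 point per library coloured by day. The sums rest mostly on S100A9 and on ALAS2. The day 0 libraries of animals 7, 11 and 15 lie at the right end of the neutrophil axis, at 29423 to 42155, and CD59 is high where erythroid markers are high.

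**Figure D5:**
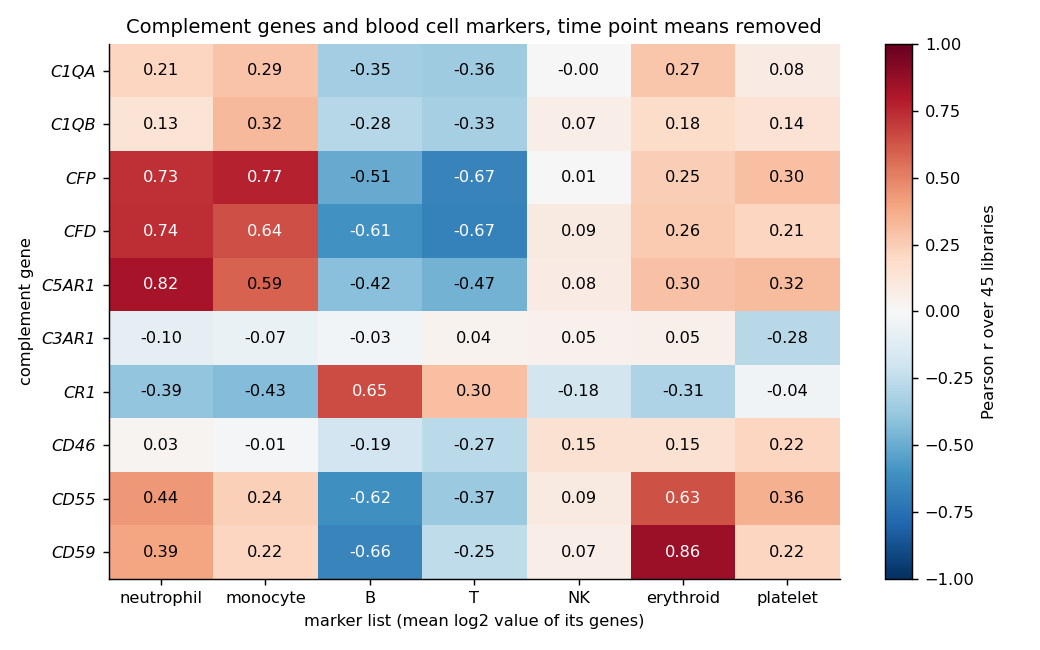
Pearson r over 45 libraries between each of the 10 complement genes (rows) and the mean log2 level of each marker list (columns), after removal of the time point means, as a colour and a printed value. The highest values among the 10 are CD59 with erythroid (0.86) and C5AR1 with neutrophil markers (0.82), and C3AR1 is near 0 in most columns.

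For each gene, the tested genes with the most similar pattern over the 45 libraries were sought among 10862 genes of at least 5 CPM. C5AR1 was closest to KIAA0513 (r = 0.93), SPI1 (0.92), a transcription factor of myeloid cells, and MTMR3 (0.92). CFP was closest to PSTPIP1 (0.91), FES (0.91), a myeloid tyrosine kinase, and TSPO (0.88), and TSPO was also among the closest 3 of CFD (0.88), with C2H20orf24 (0.88) and IFI30 (0.87). CD59 was closest to TXNL1 (0.92), SDHB (0.92) and BLOC1S1 (0.91), and CD55 to YIPF6, KCTD20 and DAZAP2 (0.81 each). CR1 was closest to KIAA1147 (0.81), LIG3 (0.78) and CNR2 (0.77), a cannabinoid receptor abundant on B cells, and CD46 to SEPT2, COPB1 and ARL6IP5 (0.77 each). C3AR1 was closest to GPR34 (0.70), PRSS57 (0.65) and CHPT1 (0.65). Among these genes C1QB was closest to IFI27 (0.64), an interferon-induced gene, followed in name by DPM3 (0.60). The 3 closest of C1QA had no gene name in the files and r of 0.54 to 0.56. The C1q genes themselves lay below 5 CPM and were left out of the search. Their r with each other was higher: 0.84 for C1QA and C1QB, 0.74 for C1QA and C1QC and 0.77 for C1QB and C1QC.

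In some of the 10 genes more of the spread over the 3 days lay between animals than in others. The share of the spread that lay between animals, after removal of the time point means, was 0.53 for CR1, higher than in 90.4% of tested genes, against a median of 0.22 for all tested genes. It was 0.49 for CD55, 0.43 for C1QB, 0.34 for CD46, 0.30 for C5AR1, 0.29 for CD59, 0.23 for C1QA, 0.15 for CFP, 0.12 for C3AR1 and 0.04 for CFD. The value of CD55 rested on animal 7 and was 0.15 without it. These shares come from 15 animals and are descriptions.

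Several of the genes are neighbours in the genome. In the RefSeq annotation of the assembly mChlSab1.0.hap1, which is not the build the reads were aligned to, C5AR1 lies next to C5AR2, the genes C1QA, C1QC and C1QB lie side by side, and CD46, CR1, CR2, CD55, C4BPA and C4BPB form a cluster. From day 3 to day 14 CR1 fell by 0.61, and the changes of CR2 (−0.61), CD55 (0.78), CD46 (0.14), C4BPA (−0.12) and C4BPB (−0.063) did not pass the test without the block. Whether the changes differed between these genes was not tested. CFD lies beside ELANE and PRTN3, which encode neutrophil serine proteases.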

How the data were processed

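RNA from whole blood of 15 animals at 3 time points was sequenced by the authors, paired-end, from stranded libraries depleted of ribosomal and globin RNA. The authors aligned reads to Chlorocebus_sabeus 1.1 with STAR, counted fragments per gene with HTSeq and tested counts with edgeR; whether counting used strand is not given in the sources used here. The submitters' processing notes also name bcl2fastq 2.17. The deposited values are FPKM, fragments per length of the gene and per total of fragments on genes in the library, one table per sample, with 33994 rows known by symbol alone. The unit was read from the values. All values above 0 (100% within 0.01 fragments) were whole multiples of the worth of 1 fragment, so fragments and totals (13216275 to 31469332) were recovered.

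FPKM were divided by TMM factors (trims of 0.3 and 0.05) from the 18753 genes above 0.5 CPM in at least 3 samples, which is 6.61 fragments in the smallest and 15.7 in the largest library. Log2(value + 0.1) was fitted with limma 3.58.1 in R 4.3.3, with one mean per day over 45 samples, two-sided, and p-values were adjusted by Benjamini-Hochberg over all tested genes. The fit was tested on simulated data. Fold changes on this scale understate changes of genes with low values. Floors cover counting error only. The main fit had no block and no covariate. The alternatives were pseudocounts of 0.01 and 1, no filter, no TMM, median-of-ratios scaling, the animal as a block, RIN (from the study's supplement) as a covariate, both together, an intensity trend, limma voom on recovered fragments and leaving out each animal. TMM factors from all genes and leaving out animals 7, 11 and 15 together were added after seeing the data. Those animals were set apart by high day 0 neutrophil markers. Leaving them out favours a smaller fall from day 0 in genes that follow these markers.

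Samples were paired by the animal in the labels. With the mean of each time point subtracted, samples of 1 animal correlated across genes with a mean r of 0.328 over 45 pairs (−0.0432 to 0.582). For 630 pairs of different animals at different time points the mean r was −0.0231 (−0.430 to 0.574), so the ranges overlapped. The members, the complement lists and the marker lists were chosen with earlier results of these data known. Named genes were the 10 members, other complement genes called from day 0 to day 14, C1QC, C5AR2, ITGAM and CR2, and the 3 genes most like each member. One repeated symbol was kept as a row of its own. No sequencing batch is named in the labels. Gene order was read from RefSeq, in which all 10 members were found. T cell and NK cell markers were used for the correlations, and their calls are given only here. Of 4 T cell markers 1 was up from day 0 to day 14, and of 5 NK cell markers 3 were up.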

Additional observations from a re-analysis of the deposited data

How the results depend on the processing

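At an adjusted p under 0.05, the 10 genes gave 2, 4 and 1 calls from day 0 to day 3, day 14 vs. day 0 and day 14 vs. day 3. The animal as a block gave 7 from day 0 to day 14 (4 up and 3 down, adding CR1, CD55 and CFP) and 4 from day 3 to day 14 (adding C5AR1, CD55 and CD59), and changed no other call of the 10. RIN as a covariate in limma gave 1, 0 and 0, against 7.65%, 19.9% and 5.96% of all tested genes. At an unadjusted p under 0.05 that fit gave 3, 5 and 4, for which the share of all genes was not computed. Limma voom gave 2, 4 and 1, against 12.5%, 34.9% and 15.2%. Block and RIN together gave 2, 1 (C5AR1) and 1 (CR1), against 14.7%, 21.7% and 9.81%. Without TMM, day 14 vs. day 3 gave 4 (38.4% of all tested genes), and day 14 vs. day 0 gave 4 down and 0 up (41.8% and 7.79%). Leaving out animals 7, 11 and 15 gave 5 from day 0 to day 14 (29.1%; CR1 and CD55 added, C3AR1 lost) and 4 from day 3 to day 14 (20.0%). Leaving out 1 animal gave 3 to 5 from day 0 to day 14, 2 from day 0 to day 3 and 0 to 4 from day 3 to day 14. The last counts were 0 without animal 1, 8, 9 or 12, 2 without animal 6 or 15 and 4 without animal 7. Over all tested genes these fits called 5897 to 6903, 1358 to 2359 and 792 to 3115 in the same order. The main fit called 6753, 2292 and 2498. From day 3 to day 14 the 792 came without animal 8 and the 3115 without animal 7. The cause of these differences in calls was not tested.

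Signs turned for small changes. CD46 from day 0 to day 3 was −0.035 without TMM, −0.00845 with median-of-ratios scaling, −0.044 with RIN, −0.034 with block and RIN and −0.055 without animals 7, 11 and 15. CD55 there was −0.031, −0.00452 and, with block and RIN, −0.034, and CFP was 0.18 without those 3 animals. CD46 was −0.27 from day 0 to day 14 and −0.24 from day 3 to day 14 without TMM, and C3AR1 −0.20 there. Leaving out 1 animal gave ranges around 0 of −0.022 to 0.079 for CD46, −0.065 to 0.16 for CD55 and −0.15 to 0.0064 for CFP from day 0 to day 3, and −0.077 to 0.037 for CFD from day 3 to day 14. Of 360 changes of the 10 genes under the other settings, 315 kept their sign and side of the threshold, and of 450 with 1 animal left out, 404 did.

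Over all tested genes, 2292, 6753 and 2498 were called. The block gave 3592 and 4455 from day 0 to day 3 and day 14 vs. day 3, RIN 1435, 3728 and 1117, both together 4069 from day 0 to day 14, no filter 1638 and no TMM 7206 (606 up and 6600 down) from day 3 to day 14, and TMM factors from all genes 1331 up and 1363 down there, against 1560 and 938. Without TMM day 14 vs. day 0 gave 1460 up and 7830 down, against 3518 and 3235. Leaving out animals 7, 11 and 15 gave 1100 from day 0 to day 3 and 3754 from day 3 to day 14, and leaving out 1 animal gave 1358 to 2359 and 792 to 3115. Depth limits the C1q genes most, at 0 to 128 fragments for C1QA.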
